A study of Mus musculus with 18 samples.

Results

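The 9 genes described here encode the subunits of mTOR complexes 1 and 2, and they were chosen by name as 9 of the 24035 genes named in the deposited count files: Mtor, Rptor, Rictor, Mlst8, Deptor, Akt1s1, Mapkap1, Prr5 and Prr5l. They were chosen as subunits of the complexes and not by a threshold on a measured value. Ribosome footprints, which are the mRNA stretches that a ribosome shields from RNase I, and heat-fragmented mRNA were sequenced from cortical neurons of C57BL/6 mice. The neurons received an MTOR construct by electroporation in utero at embryonic day 14 and were isolated by flow cytometry at embryonic day 18. The construct encoded MTOR either unchanged (WT) or with 1 amino acid replaced, C1483Y or L2427P, which makes 3 groups, with 3 libraries per group and assay. All groups therefore carried an MTOR construct beside the mouse's own gene, and no cells without a construct were analysed here. Which promoter drove the construct and whether its reads count as mouse Mtor is not given in the sources used here. The labels do not say whether the libraries of a group came from separate embryos, so p-values measure the spread between these libraries, which may be technical.

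mTOR is a serine/threonine kinase of the PIKK family (PI3K-related kinases) and works in a pair of complexes. Complex 1 (mTORC1) holds Rptor, the scaffold that recruits substrates, and the inhibitory subunit Akt1s1, also called PRAS40, and it drives protein synthesis and restrains autophagy when nutrients and growth factors are present. Complex 2 (mTORC2) holds the scaffold Rictor, the subunit Mapkap1 (SIN1), which is needed for its assembly and for recruiting Akt, and Prr5 (Protor-1) or Prr5l (Protor-2), and it phosphorylates Akt and other AGC kinases. Mlst8 binds the kinase domain in both complexes, and Deptor is an inhibitor that binds both. In cortex, activating MTOR variants are linked to focal cortical malformations and enlarged neurons.

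The sequences before the start of 3 members are shown, because these members span the range from footprints in every library to none in any. They are from RefSeq on build GRCm38.p6 and hold the 250 bases before a start in RefSeq's promoter table, 5′ to 3′ on the gene's strand. That start can lie inside the gene span given with each member below, as it does for Rictor, where 32 bases of the window are within the span, and for Prr5l, where 25 are. Each CG dinucleotide is in capitals. The Mtor window, chr4:148448332-148448581 on the plus strand, lies before the kinase gene, which had footprints in 8 of 8 libraries. The Rictor window lies at chr15:6708131-6708380 on the plus strand. The Prr5l window, chr2:101883028-101883277 on the minus strand, belongs to the gene with 0 footprint counts in 8 of 8 libraries.
Mtor: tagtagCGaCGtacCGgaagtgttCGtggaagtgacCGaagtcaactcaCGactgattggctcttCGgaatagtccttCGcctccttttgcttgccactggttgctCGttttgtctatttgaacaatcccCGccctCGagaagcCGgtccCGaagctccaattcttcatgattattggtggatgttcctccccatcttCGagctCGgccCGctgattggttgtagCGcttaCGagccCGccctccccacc
Rictor: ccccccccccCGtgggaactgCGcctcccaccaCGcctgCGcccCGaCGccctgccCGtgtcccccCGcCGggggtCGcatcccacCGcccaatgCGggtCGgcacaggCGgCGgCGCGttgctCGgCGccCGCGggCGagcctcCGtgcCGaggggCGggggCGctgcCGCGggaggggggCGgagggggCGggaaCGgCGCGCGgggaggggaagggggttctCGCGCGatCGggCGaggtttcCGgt
Prr5l: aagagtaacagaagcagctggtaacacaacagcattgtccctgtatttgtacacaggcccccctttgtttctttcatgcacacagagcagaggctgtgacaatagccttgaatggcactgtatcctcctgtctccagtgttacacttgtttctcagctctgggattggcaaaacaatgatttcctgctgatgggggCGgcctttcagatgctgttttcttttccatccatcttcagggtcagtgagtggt
The Mtor window held 19 CG dinucleotides, the Rictor window 40 and the Prr5l window 1. The median of the 32851 windows of this length was 6, and 80.3% of them held fewer than Mtor, 98.7% fewer than Rictor and 7.87% fewer than Prr5l. The motif searched was CG, which reads the same on both strands and was counted without overlap. Prr5l has 3 annotated starts, and its other windows held 2 and 10, so the window shown is 1 of several. These counts describe the sequence and say nothing of which start was used in these neurons.

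The library totals over named genes ran from 7695442 to 34094913 in footprints and from 18627076 to 53283035 in mRNA, and levels are given as CPM, counts scaled to a common total. A count of 3, taken as the floor of detection, equals 0.0880 to 0.390 CPM in footprints and 0.0563 to 0.161 CPM in mRNA. Footprint library C1483Y replicate 3 was left out, because its values are displaced against the gene names after position 5400 in the file. Across genes its correlation with the mean of the other footprint libraries was 0.825 up to that position and 0.141 after it, against 0.659 to 0.895 in the others. Libraries also differed in how many well-expressed genes were at 0 counts. Of the 5000 genes with the highest mean, 0.14% to 52.6% were at 0 in the mRNA libraries, with the top value in L2427P replicate 3, and 0.18% to 16.4% in the footprint libraries. Every footprint count of WT replicate 3 is a multiple of 3, so 3 counts is the smallest step in that library. Its total of 34094913 and its floor of 0.0880 CPM are ends of the footprint ranges above and may overstate its depth. The cell label was checked against markers: all 6 projection neuron markers were present, with a summed level of 7233 to 9966 CPM in footprints and 2982 to 5626 CPM in mRNA. The 5 progenitor markers summed to 437 to 1099 CPM and the 4 microglia markers to 79.7 to 207 CPM in footprints, while the haemoglobin genes Hba-a1 and Hbb-bs were at 0 counts in all 17 libraries used. In bulk libraries, fewer cells of a type and less RNA per cell cannot be told apart.

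Mtor, the catalytic subunit and the gene of the construct, had footprints and mRNA in all 17 libraries. Its gene lies at chr4:148448582-148557685 in GRCm38.p6, and its span overlaps Angptl7, a small nuclear RNA gene and a pseudogene. The Mtor footprint level was 3593, 3020 and 4242 CPM in WT, 2881 and 2147 CPM in C1483Y, and 730, 2681 and 2360 CPM in L2427P. Every footprint library of either mutant was below every WT library, and L2427P replicate 1 was the lowest of all 8 by a wide margin. The Mtor mRNA level was 455, 600 and 655 CPM in WT, 281, 317 and 787 CPM in C1483Y, and 587, 388 and 297 CPM in L2427P. The mRNA groups overlapped, and the highest library was C1483Y replicate 3. The counts cannot separate the construct from the mouse gene, and the part of the construct in any of these levels was not tested.

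**Figure D1:**
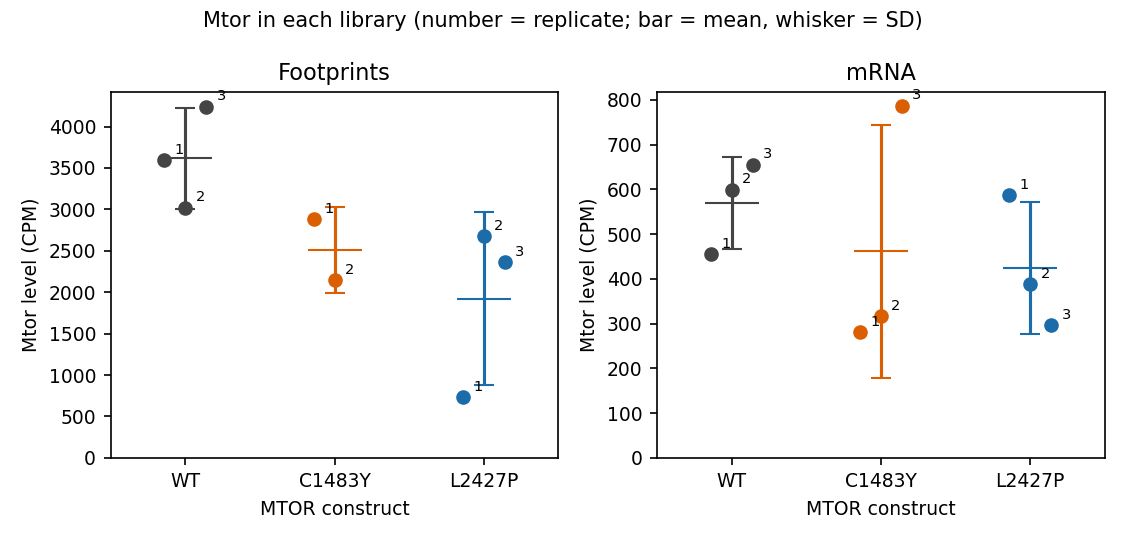
Mtor level in CPM on the vertical axis for each library (points) of WT, C1483Y and L2427P, in footprints and in mRNA, with horizontal bars for group means. All 5 mutant footprint libraries (730 to 2881 CPM) lie below the lowest WT library (3020 CPM), while the mRNA groups overlap.

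The group means of Mtor footprints were 3618 CPM ± 611 (SD, n = 3) in WT, 2514 CPM ± 520 (SD, n = 2) in C1483Y and 1923 CPM ± 1046 (SD, n = 3) in L2427P, and the neighbours C1483Y and L2427P overlapped. With both mutants together against WT, the difference in log2(CPM + 1) was −0.87, with p = 0.0357 by an exact two-sided permutation test on 5 and 3 libraries. That is the smallest p these 56 splits can give, and adjusted over the tests of both assays by Benjamini-Hochberg the exact p was 0.0714. In mRNA the difference was −0.46 on the same scale, and its exact two-sided permutation p was 0.262 on 6 and 3 libraries. The gap in footprints was lower in 5 of 5 mutant libraries but did not pass the threshold after adjustment.

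Against all genes, edgeR's quasi-likelihood test gave Mtor footprints a log2 fold change of −1.04 (SE 0.24) in L2427P against WT. The unadjusted edgeR p there was 1.04e-05 and the adjusted p 0.107. In C1483Y against WT the log2 fold change was −0.56 (SE 0.27), with an unadjusted p of 0.0351 and an edgeR adjusted p of 0.71. Between the mutants, L2427P against C1483Y, it was −0.48 (SE 0.26), with an edgeR adjusted p of 0.925. None of the 3 Mtor differences passed the threshold. The median of all genes in L2427P against WT was itself 0.32 with TMM scaling and 0.13 with DESeq2 size factors, and relative to it Mtor stood at −1.36 and −1.61. The L2427P difference turned on single libraries: it was −1.31 without WT replicate 2 (edgeR adjusted p 0.0163), −1.39 without L2427P replicate 2 (edgeR adjusted p 0.0379) and −0.75 without L2427P replicate 1 (edgeR adjusted p 0.56). In mRNA the log2 fold changes of Mtor were −0.48 (SE 0.58) in C1483Y and −0.56 (SE 0.58) in L2427P against WT, each with an edgeR adjusted p of 1. Translational efficiency, footprints relative to mRNA, differed for Mtor by −0.07 (SE 0.63) and −0.42 (SE 0.60) on the log2 scale, both with an edgeR adjusted p of 1.

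Mtor had far more footprints than mRNA relative to other genes. Its mean over all libraries was 2707 CPM ± 1043 (SD, n = 8) in footprints and 485 CPM ± 180 (SD, n = 9) in mRNA, and every footprint library except L2427P replicate 1 was at 2147 CPM or above, while no mRNA library was above 787 CPM. The ratio of the group means was 6.35 in WT, 5.45 in C1483Y and 4.54 in L2427P. This order rests on single libraries: leaving out each library in turn gave 5.77 to 6.87 in WT, 3.64 to 5.95 in L2427P and 4.56 to 8.42 in C1483Y, where the top value, above WT, is without mRNA replicate 3. Averaged over genotypes, the log2 ratio of footprints to mRNA was 2.65 (SE 0.26), which is 6.28-fold, with an edgeR adjusted p of 1.54e-20. Of the 8876 genes tested, 148 (1.67%) passed with more footprints than mRNA and 100 (1.13%) with fewer, and Mtor had the fifth lowest p. By size its ratio was 57th among the 148, and 13th among the 1371 genes with a mean of at least 100 CPM in both assays. Mtor was 1 of 6 tested members, and the other 5 did not pass edgeR's test. DESeq2 called 2 of the 6, Mtor and Mapkap1, with a background of 18.9% of genes called in either direction. For Mapkap1 the log2 ratio was −4.56 by DESeq2 (adjusted p 0.00113) and −4.72 (SE 2.41) by edgeR (adjusted p 0.355). That average includes C1483Y, which held 1 pooled Mapkap1 footprint count, under the floor of detection. The Mapkap1 ratio of group means was 0.354 in WT and 0.448 in L2427P, and none is given for C1483Y.

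**Figure D2:**
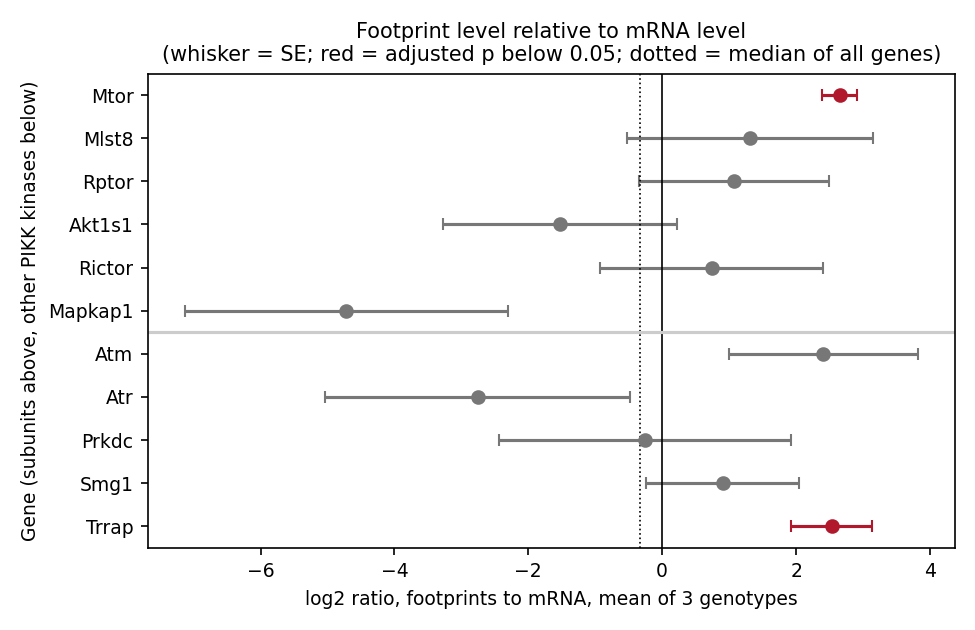
Log2 ratio of footprints to mRNA averaged over the genotypes (horizontal axis), with SE bars, for the 6 tested members and the 5 other PIKK kinases. Mtor (2.65) and Trrap (2.53) stand high with short bars, and the bars of the other members are several times longer.

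The other PIKK kinases, long proteins related to mTOR, were set beside it. Trrap, a scaffold of histone acetyltransferase complexes, was above 3 counts in all 17 libraries and had 610 CPM ± 171 (SD, n = 8) in footprints against 133 CPM ± 86.4 (SD, n = 9) in mRNA. Its log2 ratio was 2.53 (SE 0.61), with an edgeR adjusted p of 0.00225, so it passed as Mtor did. The DNA damage kinase Atm had a log2 ratio of 2.41 (SE 1.41) and an edgeR adjusted p of 0.441, which did not pass. Smg1, the kinase of nonsense-mediated decay, stood at 0.90 (SE 1.14), the DNA repair kinase Prkdc at −0.26 (SE 2.18) and the replication stress kinase Atr at −2.76 (SE 2.28), and none of these passed. The Atr average includes C1483Y, which held 0 Atr footprint counts. The Atr ratio of group means was 5.35 in WT and 4.37 in L2427P, and none is given for C1483Y. In L2427P, Atr was above 3 counts in 1 of 3 mRNA libraries.

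Mlst8, the subunit common to both complexes, varied between libraries over its whole range. Its gene lies at chr17:24473550-24479114 and overlaps Bricd5, and the strand setting of the counting is not given, so reads of the overlap are uncertain. Footprints of Mlst8 were 113, 0.163 and 65.8 CPM in WT, 0 and 55.9 CPM in C1483Y, and 176, 52.9 and 30.9 CPM in L2427P. Its mRNA level was 56.4, 29.4 and 0 CPM in WT, 53.2, 46.7 and 37.1 CPM in C1483Y, and 29.0, 0 and 0 CPM in L2427P. The genotypes overlapped in both assays, and C1483Y was the sole mRNA group with all 3 libraries above the floor. The log2 fold changes of Mlst8 mRNA were 0.66 (SE 3.71) in C1483Y and −1.45 (SE 3.77) in L2427P against WT, and neither passed edgeR's test.

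Deptor, the inhibitor of both complexes, was close to undetected. It lies at chr15:55112317-55259273, and it passed 3 counts in 1 of 8 footprint libraries, L2427P replicate 2 at 8.06 CPM, and in 2 of 9 mRNA libraries. Its highest mRNA level was 0.212 CPM. At this depth a Deptor level below the floor was not detectable, and the gene was too low to be tested.

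In complex 1, Rptor, the substrate-recruiting scaffold, was above 3 counts in 7 of 8 footprint and 7 of 9 mRNA libraries. It lies at chr11:119602905-119899591, and its span overlaps the non-coding gene Rptoros. Rptor footprints were 32.6, 223 and 102 CPM in WT, 0 and 125 CPM in C1483Y, and 219, 131 and 101 CPM in L2427P. The L2427P footprints lay within the WT range, and C1483Y replicate 1 alone was at 0. Rptor mRNA was 83.4, 67.3 and 135 CPM in WT, 93.8, 47.9 and 0 CPM in C1483Y, and 18.1, 77.8 and 0 CPM in L2427P. Replicate 3 of each mutant was at 0, C1483Y replicate 2 and L2427P replicate 1 were below the WT range, and C1483Y replicate 1 and L2427P replicate 2 lay within it. Against WT, the log2 fold changes of Rptor mRNA were −0.94 (SE 2.88) in C1483Y and −1.62 (SE 2.93) in L2427P, with an edgeR adjusted p of 1 in each.

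Akt1s1, the proline-rich inhibitory subunit of complex 1, lies at chr7:44849224-44855421 and contains the microRNA gene Mir707. Its mRNA level was 246, 84.3 and 83.0 CPM in WT, 80.0, 43.7 and 25.8 CPM in C1483Y, and 53.3, 137 and 0 CPM in L2427P. Every C1483Y library was below every WT library, by a small gap between 80.0 and 83.0 CPM, while L2427P overlapped WT. Akt1s1 footprints were 0.390, 96.9 and 50.1 CPM in WT, 0 and 23.3 CPM in C1483Y, and 0.149, 33.2 and 44.0 CPM in L2427P. The displaced library C1483Y replicate 3 holds Akt1s1 before the displacement, at 3.43 CPM, which lies between the other C1483Y libraries. The log2 fold changes of Akt1s1 against WT in C1483Y were −1.43 (SE 2.49) in mRNA and −2.03 (SE 4.01) in footprints, and neither passed edgeR's test.

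In complex 2, Rictor, the scaffold, lies at chr15:6708349-6800401. Rictor footprints were 0, 148 and 87.7 CPM in WT, 43.9 and 144 CPM in C1483Y, and 14.9, 41.6 and 94.8 CPM in L2427P. The footprint groups overlapped throughout. Rictor mRNA was 63.1, 56.0 and 46.0 CPM in WT, 89.5, 0.0196 and 0 CPM in C1483Y, and 50.3, 115 and 0 CPM in L2427P. WT was the tightest mRNA group at 55.0 CPM ± 8.57 (SD, n = 3), and mutant libraries lay both above and below it. In mRNA the log2 fold changes of Rictor were −0.76 (SE 3.13) in C1483Y and −0.02 (SE 3.11) in L2427P against WT, and edgeR's adjusted p was 1 in both.

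Mapkap1, the SIN1 subunit of complex 2, had almost no footprints in C1483Y, while its mRNA was present in every group. It lies at chr2:34406771-34624958, and a non-coding gene and a pair of pseudogenes overlap its span. Mapkap1 footprints were 1.30, 26.4 and 17.2 CPM in WT, 0.0422 and 0 CPM in C1483Y, and 0.522, 21.9 and 41.5 CPM in L2427P. The C1483Y libraries held 1 and 0 counts, below every WT and every L2427P library, while WT and L2427P overlapped. Mapkap1 mRNA was 55.2, 69.6 and 1.86 CPM in WT, 87.4, 151 and 61.8 CPM in C1483Y, and 61.3, 78.1 and 3.29 CPM in L2427P. Its mRNA was thus present in all 9 libraries, and C1483Y was not the lowest group. The pattern was not particular to Mapkap1. Atr had 0 footprint counts in both C1483Y libraries, against means of 63.9 CPM in WT and 13.4 CPM in L2427P. Its mean mRNA level in C1483Y was 36.0 CPM. Atm, Smg1 and Trrap were above 3 counts in both C1483Y footprint libraries. Over all genes tested, every C1483Y footprint library was below every WT library in 4.93%.

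The pooled Mapkap1 footprints were 921 counts in WT and 1228 in L2427P against 1 in C1483Y. Scaled to the pooled library totals, the WT count was 588 times that of C1483Y, with a 95% counting interval of 105 to 23240. The L2427P count was 886 times that of C1483Y, with an interval of 159 to 35019. Both ratios rest on 1 C1483Y count, under the floor of 3 counts. WT replicate 3, where every count is a multiple of 3, held 588 of the 921 WT counts, which the interval takes as independent. These intervals cover counting error only and not the spread between libraries, which ran from 1.30 to 26.4 CPM within WT. edgeR's quasi-likelihood test did not call the difference, with an adjusted p of 0.74 for C1483Y against WT and 0.94 for L2427P against C1483Y. DESeq2's Wald test called it, with adjusted p of 0.0221 and 0.0256. Of the 5000 genes with the highest mean, 14.1% were at 0 in C1483Y replicate 1 and 2.46% in C1483Y replicate 2, where Mapkap1 was at 0, and their part in the result was not tested.

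Prr5 and Prr5l, the paired Protor subunits of complex 2, were the members nearest to absent beside Deptor. Prr5, at chr15:84663206-84706409, passed 3 counts in 2 of 8 footprint libraries, at 0.352 CPM in WT replicate 3 and 7.08 CPM in L2427P replicate 3, and in 1 of 9 mRNA libraries, at 1.93 CPM in L2427P replicate 2. Prr5l, at chr2:101713110-101883052, had 0 counts in all 8 footprint libraries and passed 3 counts in 4 of 9 mRNA libraries. Those 4 were WT replicate 2 at 0.731 CPM, WT replicate 3 at 29.2 CPM, C1483Y replicate 1 at 4.59 CPM and L2427P replicate 2 at 0.322 CPM. The other 5 mRNA libraries were at 3 counts or fewer, and the genotypes overlapped.

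**Figure D3:**
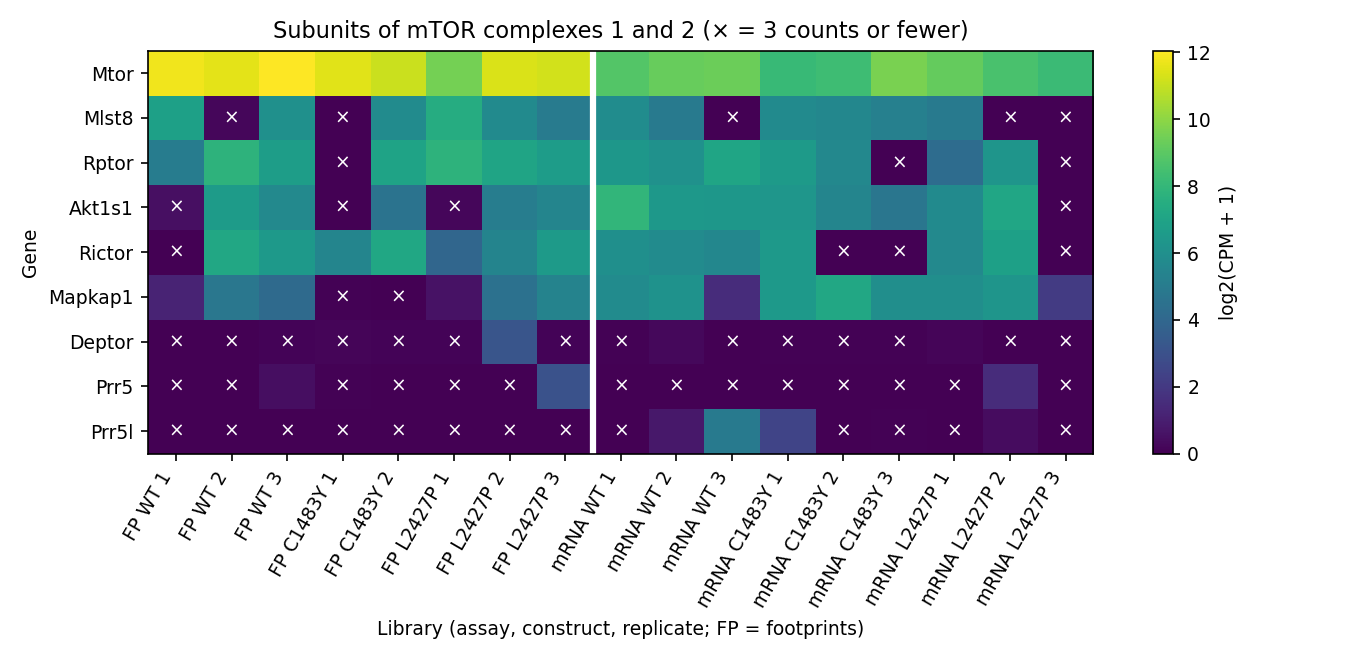
Levels of the 9 members as log2(CPM + 1) in each of the 17 libraries, with footprints and mRNA side by side. Mtor is high in every column, Deptor, Prr5 and Prr5l are near 0 in most, and the 5 other members move between 0 and well above it from library to library.

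The 5 partners Rptor, Rictor, Mlst8, Akt1s1 and Mapkap1 were lost together in some libraries. All 5 were above 3 counts in 3 footprint libraries, WT replicate 3 and L2427P replicates 2 and 3, in which 0.18% to 1.78% of the 5000 genes with the highest mean were at 0. In footprint library C1483Y replicate 1, 1 of the 5 was detected, and 14.1% of those genes were at 0. In mRNA library L2427P replicate 3, 1 of the 5 was detected and 52.6% of those genes were at 0, while in C1483Y replicate 3 it was 3 of the 5 and 22.1%. WT replicate 1 mRNA had all 5 partners with 14.1% at 0. Footprint library WT replicate 1, with the highest footprint share at 0, 16.4%, had 3 of the 5. The share of genes at 0 thus did not order the libraries by partners detected. Its part in the levels of the partners was not tested.

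**Figure D4:**
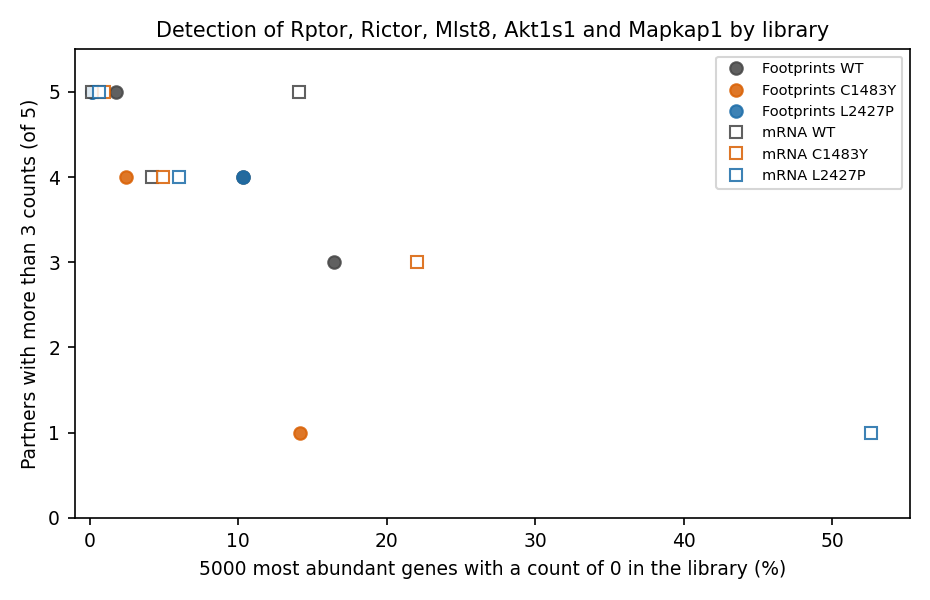
Number of the 5 partner genes above 3 counts (vertical axis) against the percent of the 5000 genes with the highest mean at 0 counts (horizontal axis), 1 point per library, where points that coincide overlap. The mRNA library at 52.6% has 1 partner, and the libraries with all 5 lie at 14.1% or below.

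Across the members, edgeR called 0 of 7 tested in each of the mRNA comparisons and 0 of 6 tested in each footprint and translational efficiency comparison. The background was also 0% of genes called in 8 of these 9 comparisons and 0.0105% in mRNA, L2427P against C1483Y, so the members' count did not stand apart from it. At an unadjusted p under 0.05 there was 1 member, Mtor, in footprints in each mutant against WT. Over all genes, 4.4% did so in C1483Y and 3.76% in L2427P. The unadjusted edgeR p of Mtor was 0.0351 in C1483Y and 1.04e-05 in L2427P. There were 0 members in the other 7 comparisons, where 1.27% to 4.22% of all genes did. DESeq2 called 1 member, Mapkap1, in footprints in C1483Y against WT, with a background of 9.55%, and in L2427P against C1483Y, with a background of 6.01%. In footprints, L2427P against WT, it called 0, with a background of 3.82%. It also called Mapkap1 in translational efficiency in the same pair of comparisons, with backgrounds of 9.41% and 10.2%, and 0 members in L2427P against WT, with a background of 6.33%. In mRNA DESeq2 called 0 members, with backgrounds of 2.02% in C1483Y against WT, 3.39% in L2427P against WT and 5.9% in L2427P against C1483Y. The median standard error over all genes was between 3.30 and 4.66 on the log2 scale in these 9 comparisons, and that of Mtor was 0.24 to 0.63.

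By ranges rather than tests, every C1483Y footprint library was below every WT library in 2 of the 9 members, Mtor and Mapkap1, and above in 1, Deptor, where all libraries of both groups were at 3 counts or fewer. The same held for 4.93% and 6.61% of all genes tested in these libraries. Those shares leave out genes too low to be tested, which in footprints include Deptor, Prr5 and Prr5l. In L2427P footprints 1 member, Mtor, lay below WT throughout, against 1.65% of all genes, and 0 lay above, against 6.97%. In mRNA 1 member, Akt1s1, lay below WT throughout in C1483Y, against 4.67% of genes, with 0 above against 3.15%. L2427P mRNA had 0 members below, against 6.25%, and 0 above, against 2.18%. Both mutants share the WT libraries, so their values for Mtor are not independent of each other.

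The median log2 fold change of the tested members against WT in mRNA was −0.76 in C1483Y and −1.12 in L2427P, and that of all genes was −0.05 and −0.28. In footprints it was −1.10 in C1483Y and −0.18 in L2427P, beside −0.16 and 0.32 for all genes. These medians rest on 6 or 7 genes whose single standard errors, Mtor aside, are larger than the medians, and they set no member apart.

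The genes around the complexes were counted in 7 lists of 59 genes: Tsc1, Tsc2 and Rheb with their partner, the Rag GTPases with Ragulator, the nutrient sensors GATOR1, GATOR2 and KICSTOR, the chaperones that assemble mTOR, the substrates of complex 1, those of complex 2, and the other PIKK kinases. edgeR called 0 of them in each of the 9 genotype comparisons. In footprints against mRNA, 54 of them were tested, and those described here that passed were Hsp90aa1 and Trrap, which were higher, and Akt1, which was lower. Over all genes, 2.79% passed in either direction. Hsp90aa1, a chaperone that helps fold and assemble PIKK kinases, had a log2 ratio of 2.45 (SE 0.24), with an edgeR adjusted p of 1.54e-20. The values of Trrap are given above. Akt1, the kinase that complex 2 phosphorylates and that phosphorylates Akt1s1, had −2.18 (SE 0.62), with an edgeR adjusted p of 0.0179. The median of the 54 was −0.27, beside −0.32 for all genes.

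The profile of Mtor over the 17 libraries was set beside those of 7146 other genes by the root mean square difference of centred log2(CPM + 1). Among the nearest were Snrnp200, a spliceosome helicase, at 0.72, Map1b, a microtubule-associated protein of growing axons, at 0.74, and the actin-severing protein Cfl1 and the stress granule protein G3bp2 at 0.77 each, against a median of 2.88 over all genes. Each of these 4 had more footprints than mRNA, with log2 ratios from 1.62 in G3bp2, which did not pass edgeR's test, to 3.57 in Map1b. The distance was taken over footprint and mRNA libraries together. Nearness to Mtor therefore largely brings such a ratio with it, and the ratio is no separate result. In L2427P footprints against WT, the log2 fold changes of these 4 genes ran from −0.42 to 0.07, beside −1.04 for Mtor. That difference between genes was not tested.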

How the data were processed

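Footprint and mRNA libraries of cortical neurons with 3 MTOR constructs were analysed from the authors' deposited tables. The submitters' processing notes list build mm10 with HTSeq (no version), TopHat2 2.1.1 and Bowtie 1.1.2. Strand setting and annotation: not given in the sources used here. The authors' deposited values are raw read counts per gene, whole numbers in 17 libraries. In footprint library C1483Y replicate 3, 165 deposited values are not whole, so they count as estimated counts, and that library entered no main fit. The 27 names turned into dates (0.0935% to 0.328% of counts) and the 5 summary lines were left out.

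CPM was computed from each library's total over named genes, from 7695442 to 53283035. Counts were tested with edgeR 4.0.16 in R 4.3.3 (quasi-likelihood, TMM scaling, filterByExpr with a minimum count of 10, robust dispersion, Benjamini-Hochberg over all genes tested at 0.05). There were 9 libraries in the fit of mRNA, 8 in that of footprints and 17 in that of translational efficiency, which is an interaction of assay and genotype. Mtor was also tested by exact permutation on log2(CPM + 1). Alternatives were DESeq2 1.42.0, other scalings and filters, a replicate block and leaving out each library. The SE of a log2 fold change was obtained by dividing it by √F. Transcript lengths were not used here, so rankings and sums across genes by CPM are not corrected for length. The ratio of footprints to mRNA was not corrected for the coding part of each transcript either. The rule for the members uses no measured value, but the members and the gene lists were proposed with earlier results of these data known. The genes named were the 9 members, list genes past the threshold (up to 4 a list), the PIKK kinases and the 5 genes nearest to Mtor with a mean of at least 10 CPM in both assays, and some genes that this rule names are not reported here. PCR duplicates cannot be told apart, so floors and intervals cover counting error only.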

Additional observations from a re-analysis of the deposited data

How the results depend on the processing

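The number of members called over the 10 comparisons stayed the same in 196 recomputations and moved in 8. DESeq2's Wald test raised it to 1 from 0 for both footprints and translational efficiency when C1483Y was set against WT or against L2427P. The same test raised it to 2 from 1 in footprints against mRNA, where Mapkap1 joined Mtor. Mapkap1 had a log2 ratio of −4.56 there, with a DESeq2 adjusted p of 0.00113 and 1 pooled footprint count in C1483Y. Leaving out single libraries moved footprints, L2427P against WT, between 0 and 1. Including the displaced library as deposited left 0 members called in footprints against mRNA, with Mtor at 2.44 and an edgeR adjusted p of 0.211. Mtor passed in the other 26 of 27 alternatives, from 2.42 to 2.84, 2 of which were chosen after seeing the data and left out the libraries with the most genes at 0. Akt1 passed in 20 of 27. Without single libraries, the Mtor footprint difference of mutants against WT ran from −1.01 to −0.52, with exact permutation p from 0.0571 to 0.0952, and these sizes cannot reach 0.05. No called value of a single gene changed sign, and 82 of the members' 1276 values changed sign, none of them called. The cause of these moves was not tested.

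Same-numbered libraries of different genotypes within an assay correlated at −0.056 to 0.0344. Among them, 2 of 8 footprint and 2 of 9 mRNA libraries correlated best with their own number. No pairing by number was seen there, but this cannot exclude a pairing, because each group holds few libraries. Whether a footprint and an mRNA library of the same construct and number came from a common sample was not tested. The main fits took them as unpaired. With a replicate block, Mtor in footprints, L2427P against WT, was −1.10 with an edgeR adjusted p of 1, and the number of members called was the same, 0 in the genotype comparisons and 1 in footprints against mRNA. Levels per transcript length were not run. At this depth, partners at 0 counts cannot be ranked below the floor.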
